A study of Homo sapiens with 3 samples.

Results

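CD44 and 9 genes that make, bind or break down hyaluronan were followed in MCF10Ca1h cells, a tumour-forming human line of the MCF10 breast epithelial series. The members were CD44, HAS2, HAS3, HMMR, CEMIP, CEMIP2 (formerly TMEM2), HYAL1, HYAL2, HYAL3 and UGDH, taken by symbol, and all 10 were found among the 56632 gene IDs of the deposited tables. Gene-level RNA-seq values came from 3 libraries, with 1 library for each group. The GSK484 library came from cells given GSK484, an inhibitor of the citrullinating enzyme PADI4, for 72 h. The CON library came from cells that had a control compound for 72 h, a compound that the labels' treatment text and the name of the deposited table call by different code names. The NT library came from untreated cells, with no time given. All groups share this 1 cell line and its medium of DMEM/F12 with 5% horse serum, and no dose is given. There were no replicates, so conditions could not be tested against each other, and each interval below covers counting error only.

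Hyaluronan is a long, unbranched sugar polymer of the extracellular matrix. HAS enzymes assemble it at the plasma membrane from UDP-glucuronic acid, which UGDH makes, and UDP-N-acetylglucosamine. CD44 is its main cell-surface receptor and is widely used to sort breast cancer stem cells, HMMR (also called RHAMM) binds hyaluronan and also sits on the mitotic spindle, and the HYAL and CEMIP proteins act in its breakdown.

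Total expected counts were 77220120 in GSK484, with 92980847 in CON and 70555229 in NT, and 12989 to 13026 genes reached 1 CPM (counts scaled to library size) in a library. All 6 basal mammary markers and all 4 general epithelial markers examined were expressed, the basal ones with a summed level of 4055.05 TPM in GSK484, 3618.03 TPM in CON and 3528.27 TPM in NT. TPM is the deposited level per length, scaled to the same total in each library. The 5 leukocyte markers reported here summed to 2.63 TPM in GSK484, 2.88 TPM in CON and 3 TPM in NT, with PTPRC, CD3E and MPO at 0 in every library. CD68 made up nearly all of this sum, at 2.57 TPM in GSK484, 2.76 TPM in CON and 3 TPM in NT. The 5 fibroblast markers summed to 2.88 TPM in GSK484, against 1.99 in CON and 1.80 in NT, with DCN at 0 in every library, and the 4 matched endothelial markers to 0.32, 0.58 and 0.35 TPM in the same order, with the hyaluronan receptor gene LYVE1 at 0.

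The members differed widely in abundance and kept the same order in each library, apart from a tie. CD44 was by far the most abundant, at 475 TPM in GSK484, 401 TPM in CON and 429 TPM in NT, above 97.8%, 97.4% and 97.6% of the genes of at least 1 CPM in those libraries. HAS3, the synthase that makes shorter hyaluronan chains than HAS2, came next at 94.11 TPM in GSK484, 87.85 TPM in CON and 103.76 TPM in NT. CD44 was thus 4.14 to 5.05 times as abundant as HAS3 on the TPM scale. CEMIP2, HYAL2 and HMMR formed a middle group between 12.18 and 31.92 TPM. CEMIP2 was 1.12 to 1.29 times as abundant as HYAL2, and HYAL2 1.11 to 2.18 times as abundant as HMMR, with the widest ratio in CON. UGDH (7.25 to 9 TPM) and HYAL3 (5.62 to 6.83 TPM) were lower, and CEMIP (0.81 to 0.99 TPM) and HYAL1 (0.58 to 0.81 TPM) lower again, with CEMIP and HYAL1 tied at 0.81 TPM in CON. HAS2, the synthase of long chains, was nearly silent at 0.05 TPM in GSK484, 0.01 TPM in CON and 0.04 TPM in NT.

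**Figure D1:**
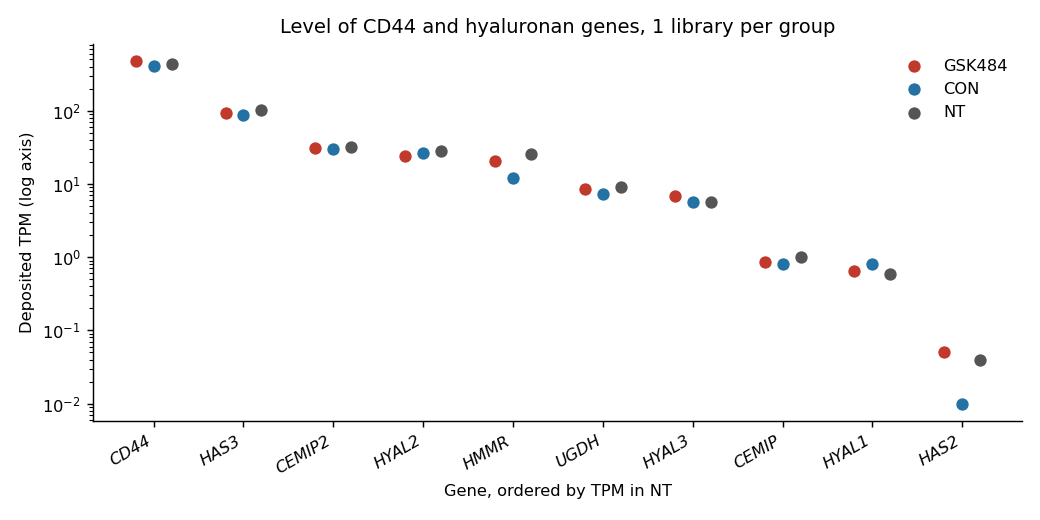
Deposited TPM of the 10 genes on a log axis, ordered by the level in NT, with 1 point per library (GSK484, CON, NT). CD44 lies between 401 and 475 TPM and HAS2 between 0.01 and 0.05 TPM, and the spacing between genes is wider than that between libraries for most of them.

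For differences between libraries, expected counts were scaled to CPM. A gene was counted where the higher library exceeded the lower one by at least 25%, where the 95% counting interval of the log2 fold left out 0 and where at least 1 of both libraries reached 1 CPM. A second count required a fold of 2. HAS2 lay below that CPM minimum, so 9 of the 10 members could be counted. By the 25% rule HMMR was higher and HYAL1 lower in GSK484 than in CON, where 8.99% of 13199 genes were higher and 4.48% lower. None was past 2-fold, where 0.197% of genes were higher and 0.273% lower. The median log2 fold of the 9 genes was 0.00, beside -0.01 over all genes compared. Against NT, no member was higher in GSK484 and CEMIP was lower, where 5.04% of 13209 genes were higher and 7.47% lower, with a median of -0.18 beside 0.00. At 2-fold, again no member was counted, beside 0.257% and 0.28% of genes. In CON, HYAL1 was higher than in NT and HMMR and CEMIP were lower, where 6.88% of 13221 genes were higher and 14.6% lower, with a median of -0.08 beside 0.03. At 2-fold the count was 0, beside 0.333% and 1.35% of genes. By counting error alone, 2 members were higher in GSK484 than in CON and 4 lower, beside 26.9% and 27.4% of genes. Against NT, 1 was higher in GSK484 and 6 were lower, beside 27% and 29.8%. In CON, 1 was higher and 6 were lower than in NT, beside 35.3% and 29.6%. The 6 of 9 members below NT are a larger share than that of all genes, at differences that were mostly small, and this was not tested. Whether an interval leaves out 0 depends on read depth, and the share of all genes covers genes down to 1 CPM. No share over genes of similar level is given, so the larger share cannot be read as a trait of the members. With the trend over GC content and length removed, UGDH was within counting error in GSK484 and in CON against NT, and in CON CEMIP2 was too and CD44 was above NT. CD44 was the only member above both other libraries in GSK484 beyond counting error, and HAS3, HYAL2 and CEMIP2 were below both, although on the TPM scale HAS3 (0.10) and CEMIP2 (0.05) were above CON. The share of all genes above or below both libraries is not given, so this cannot be read as a trait of these members. Each of the 3 comparisons shares a library with the others, so their values are not independent of each other.

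**Figure D2:**
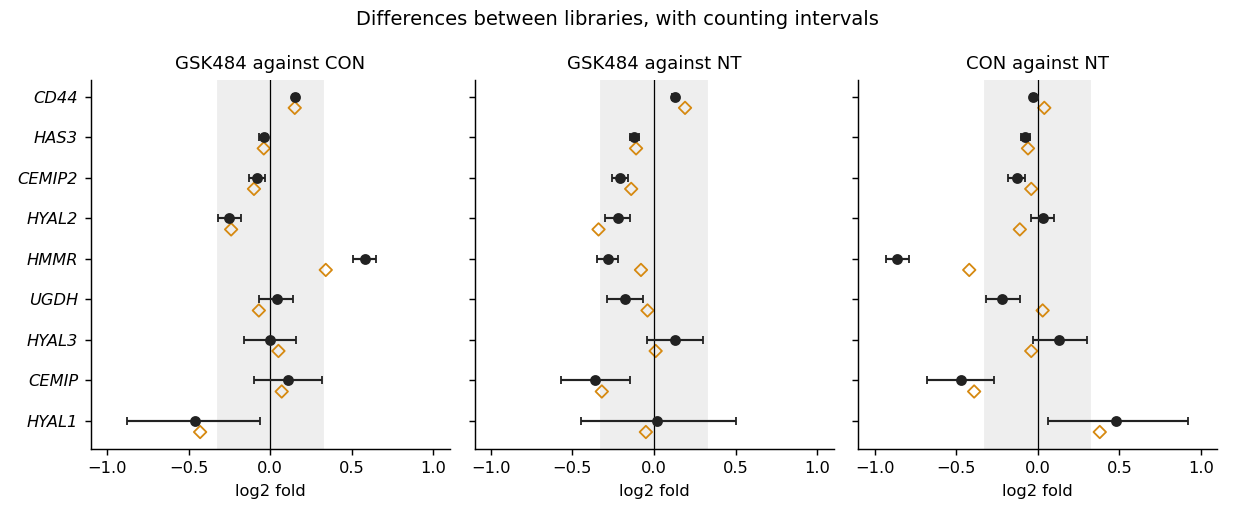
Log2 fold of 9 members (x axis) in GSK484 against CON and against NT, and CON against NT. Filled points are TMM-scaled CPM with 95% counting intervals, open diamonds the value after removal of the trend with GC content and length, and the grey band marks differences under 25%. HMMR stands at 0.58, -0.28 and -0.86 in the 3 panels, and CD44 at 0.15, 0.13 and -0.03.

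Among the receptors, CD44 (ENSG00000026508) had 71758 expected counts in GSK484, with 75567 in CON and 60054 in NT, or 921 CPM in GSK484, 828 CPM in CON and 843 CPM in NT. The GSK484 library was the highest, and CON and NT were close to each other. The difference was 1.11-fold against CON (log2 fold 0.15, interval 0.14 to 0.17) and 1.09-fold against NT (0.13, interval 0.11 to 0.14). With so many reads the interval is narrow, but 62.2% of measured genes had a smaller absolute fold against CON and 50.7% against NT. The size was thus ordinary on this scale, among genes down to 1 CPM. With the trend with GC content and length removed, CD44 stood at 0.15 against CON and 0.19 against NT (interval 0.17 to 0.20). The median absolute log2 fold of all genes was then 0.10 and 0.09. CON differed from NT by -0.03 (interval -0.04 to -0.01), a sign that became 0.04 once the trend with GC content and length was removed. CD44 had a GC content of 45.3%, and 639 genes within 1 percentage point of it had a median log2 fold of -0.02 in GSK484 against CON. On the deposited TPM scale the log2 fold was 0.24 against CON, where the median of all genes was 0.10, and 0.15 against NT. All CD44 counts were whole, with no sign of reads divided with other genes. Its antisense gene CD44-AS1 had 11 counts in GSK484, with 7 in CON and 15 in NT.

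CD44 is spliced into standard and variant forms, and the tables list 42 transcripts for it. The gene tables give no values per transcript, but the length they report is weighted by the transcript mix. For CD44 it was 2445 bases in GSK484, with 2416 in CON and 2493 in NT, a log2 ratio of 0.02 in GSK484 against CON and of -0.03 against NT. The weighted length of CD44 was thus similar in the 3 libraries. All 11 splicing regulators examined, RNA-binding proteins that act or are likely to act on CD44 variant exons, were expressed and 0 were past the 25% rule in any comparison, with medians of -0.01 in GSK484 against CON, 0.00 against NT and -0.03 for CON against NT. For all genes, the shares higher and lower were 8.99% and 4.48%, 5.04% and 7.47%, and 6.88% and 14.6% in these comparisons. With so few genes beside such shares, a count of 0 cannot be read as a trait of the list. ESRP1, the epithelial splicing factor that favours variant exons, was at 47.55 TPM in GSK484, 46.96 TPM in CON and 49.37 TPM in NT (log2 fold -0.02 against CON, counting interval -0.06 to 0.03). HNRNPA1 (0.11), PCBP1 (-0.19) and SND1 (0.09) had the largest values of the list against CON, and HNRNPL was at 353.17 TPM in GSK484, 326.43 TPM in CON and 340.55 TPM in NT.

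HMMR (ENSG00000072571), the other hyaluronan-binding receptor among the members, had the largest difference of the 9 in GSK484 against CON and in CON against NT. It had 3714 expected counts in GSK484, with 2904 in CON and 4126 in NT, or 47.7 CPM in GSK484, 31.8 CPM in CON and 57.9 CPM in NT. The CON library was the lowest and NT the highest, with GSK484 between them. GSK484 was 1.5-fold higher than CON (log2 fold 0.58, interval 0.51 to 0.65) and 1.22-fold lower than NT (-0.28, interval -0.35 to -0.22), and CON was 1.82-fold lower than NT (-0.86, interval -0.93 to -0.79). Of all measured genes, 96.4% had a smaller absolute fold in GSK484 against CON and 97.1% in CON against NT. All counts were whole.

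HMMR transcripts have a low GC content, 36.7% in the longest annotated one, and the libraries differed along GC content. Over 410 genes within 1 percentage point of it, the median log2 fold was 0.22 in GSK484 against CON, -0.19 against NT and -0.40 for CON against NT. With the smooth trend over GC content and length removed, HMMR stood at 0.34 in GSK484 against CON (interval 0.27 to 0.41), -0.08 against NT (interval -0.15 to -0.02) and -0.42 in CON against NT (interval -0.49 to -0.35). The direction was the same in all 3 comparisons, and each value was closer to 0. The form of the trend was settled after values were seen. Over 32 forms, HMMR ranged from 0.30 to 0.36 in GSK484 against CON, on both sides of the 25% rule, and from -0.47 to -0.37 in CON against NT. With an interaction of GC content and length it was 0.31 in GSK484 against CON, which is under the 25% rule. On the TPM scale the log2 folds were 0.74, -0.32 and -1.06 in the same order. In a bulk sample, fewer cells in mitosis and less HMMR RNA per cell cannot be told apart.

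The promoters of HMMR and CD44, receptors of the same polymer, are shown as a description. Whether their motifs bear on the differences between libraries was not tested. The windows are the 250 bases before the transcription start in RefSeq, build GRCh38.p14, written 5′ to 3′ on the gene's strand. In HMMR (chr5:163460382-163460631, + strand), capitals mark CCAAT boxes on either strand (CCAAT or ATTGG) and TTTGAA on either strand (TTTGAA or TTCAAA), the letters of the cell cycle genes homology region known from genes of mitosis. In CD44 (chr11:35138921-35139170, + strand), capitals mark GGGCGG or CCGCCC, the GC box.
HMMR: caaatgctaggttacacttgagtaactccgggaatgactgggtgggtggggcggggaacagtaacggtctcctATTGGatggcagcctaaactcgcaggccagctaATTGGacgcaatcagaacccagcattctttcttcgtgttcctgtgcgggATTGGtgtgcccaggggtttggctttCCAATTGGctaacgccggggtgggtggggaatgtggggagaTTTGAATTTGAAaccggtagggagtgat
CD44: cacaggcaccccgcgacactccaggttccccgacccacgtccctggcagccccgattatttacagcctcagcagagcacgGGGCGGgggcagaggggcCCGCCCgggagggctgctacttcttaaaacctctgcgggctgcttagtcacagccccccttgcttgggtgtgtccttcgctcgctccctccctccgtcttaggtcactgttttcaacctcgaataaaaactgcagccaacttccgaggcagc
The HMMR window held 5 CCAAT boxes, a pair of which overlap in CCAATTGG, and 2 copies of TTTGAA end to end that begin 28 and 22 bases before the start. At least 5 CCAAT boxes were found in 0.319% of 35116 RefSeq windows of the same length, and the tandem copy in 5 windows in all. The CD44 window held neither motif and 2 GC boxes. The HMMR window also held 1 GC box, which is not marked in the sequence above. Of the 9 members with a window, HMMR alone held CCAAT, which 32% of all windows hold, and HMMR alone held TTTGAA, which 13.3% hold. The GC box was in 8 of the 9, beside 42.6% of all windows.

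Of 12 genes whose products work with HMMR on the spindle, 9 had a window. Of these, 8 held CCAAT and 3 held TTTGAA. The stretches around TTTGAA, in capitals on either strand, are shown for those 3. KIF11 had the same order of libraries as HMMR, and PLK1 did not. CEP192 had that order only with GSK484 and CON alike within counting error. They lie at chr10:92593087-92593122, + strand, chr16:23678845-23678880, + strand and chr18:12991153-12991188, + strand, in the order printed.
KIF11: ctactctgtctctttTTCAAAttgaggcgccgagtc
PLK1: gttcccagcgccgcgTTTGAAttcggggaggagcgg
CEP192: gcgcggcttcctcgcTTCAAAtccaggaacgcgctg
The match began 28 bases before the start in KIF11, 29 in PLK1 and 194 in CEP192. KIF11, a spindle motor, was at 67.3 CPM in GSK484, 45.2 CPM in CON and 80.3 CPM in NT, the same order as HMMR, while PLK1, a mitotic kinase, was at 160 CPM in GSK484, 168 CPM in CON and 155 CPM in NT. CEP192, a centrosome protein, was at 16.7 CPM in GSK484, 16 CPM in CON and 18.9 CPM in NT, with log2 folds of only 0.06 in GSK484 against CON (within counting error) and -0.24 in CON against NT. With the trend over GC content and length removed, these were -0.03 and -0.02. These matches are letters in a window and not shown to be bound.

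All 12 spindle partners were expressed. In GSK484, 2 were higher than CON by at least 25% and 0 lower, with a list median of 0.02, beside 8.99% and 4.48% of all genes. KIF11 had a log2 fold of 0.57 (0.34 with the trend over GC content and length removed) and BRCA1, which forms a ubiquitin ligase with BARD1, of 0.44 (0.33). Over the 32 forms of the trend, KIF11 ranged from 0.25 to 0.36 here, on both sides of the 25% rule. NEDD9, a docking protein of the mitotic kinase AURKA, went the other way at -0.32 (interval -0.43 to -0.20), just under the rule. With the trend removed NEDD9 was at -0.35, past the rule, and ranged from -0.35 to -0.30 over the 32 forms. Against NT, 0 were higher and 3 lower in GSK484 (median -0.09), beside 5.04% and 7.47% of all genes. The 3 were BRCA1 (-0.38, or -0.24 with the trend removed), BARD1 (-0.42, or -0.20) and NEDD9 (-0.35, or -0.28). None of these was past the 25% rule against NT with the trend removed. In CON, 0 were higher and 3 lower than in NT (median -0.07), beside 6.88% and 14.6% of all genes. The lower ones were KIF11 (-0.83, or -0.38 with the trend removed), BRCA1 (-0.82, or -0.58) and BARD1 (-0.62, or -0.15, under the 25% rule). KIF11 ranged from -0.42 to -0.25 over the 32 forms in this comparison, again on both sides of the rule. BARD1 was chosen after its values were seen. The direct HMMR partners TPX2 and AURKA, also chosen after their values were seen, had log2 folds of 0.05 and -0.01 in GSK484 against CON and of -0.07 and -0.06 in CON against NT, so the partners did not share 1 pattern. The most abundant ones were DYNLL1, a dynein light chain, at 754.39 TPM in GSK484, 798.7 TPM in CON and 782.23 TPM in NT, and TUBG1, gamma tubulin, at 119.21, 123.64 and 125.62 TPM in the same order.

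**Figure D3:**
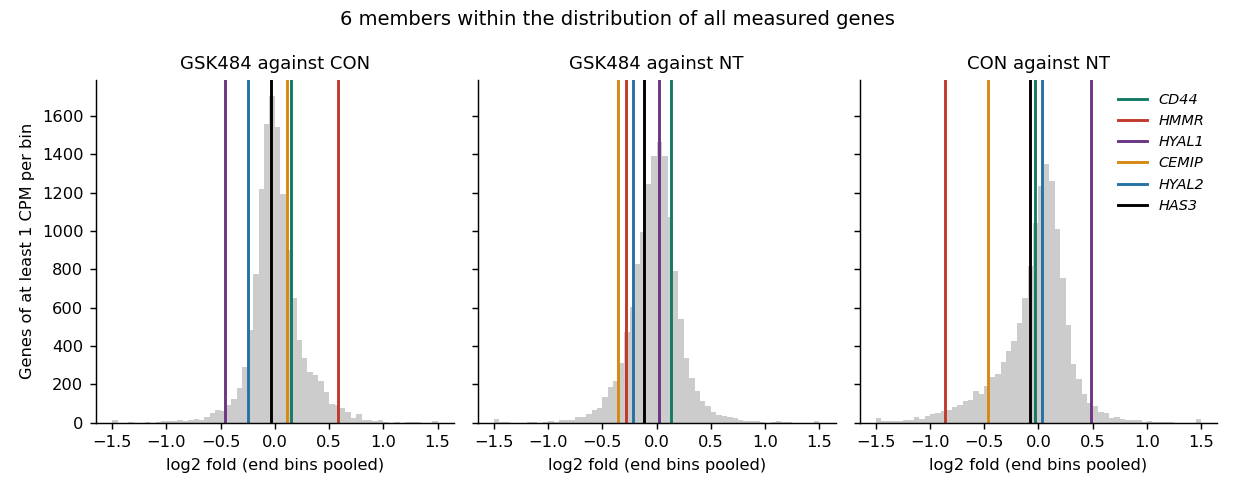
Number of genes of at least 1 CPM per log2 fold bin (grey), with the values of 6 members as lines, for GSK484 against CON and against NT, and CON against NT. HMMR lies in the upper tail at 0.58 in the first panel and in the long lower tail at -0.86 in the third. CD44, at 0.15, 0.13 and -0.03, lies closer to the peak, on its upper side in GSK484 against CON and against NT.

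Over the 3 log2 folds, the genes of at least 50 CPM most like CD44 were IWS1, RRP12 and SPEN, whose largest difference from it in any comparison was 0.0047, 0.011 and 0.012. Of 3562 genes, 53 lay within 0.05 of CD44. For HMMR the nearest were ANLN, a gene of cell division, at 0.018, ZNF638 at 0.031 and BCLAF1 at 0.048, and 4 of 3563 genes lay within 0.05. ANLN had log2 folds of 0.56 in GSK484 against CON, -0.28 against NT and -0.85 for CON against NT. Likeness over 3 libraries describes these libraries only.

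Among the synthases, HAS3 (ENSG00000103044) carried nearly all synthase reads, with 23036 expected counts in GSK484, with 27808 in CON and 22907 in NT, or 296 CPM in GSK484, 305 CPM in CON and 322 CPM in NT. NT was the highest and the other libraries lay close together. The log2 fold was -0.04 in GSK484 against CON (interval -0.07 to -0.02) and -0.12 in GSK484 against NT (interval -0.15 to -0.09), both under 25%. The first turns to 0.10 on the TPM scale, equal to the median of all genes there, and is 0.00 with total-count scaling. Its counts were not whole, and it overlaps CHTF8 on the opposite strand, which was at 156 CPM in GSK484, with 156 in CON and 162 in NT. HAS2 (ENSG00000170961) had 14 counts in GSK484, with 5 in CON and 10 in NT, or 0.18 CPM in GSK484, 0.0548 CPM in CON and 0.14 CPM in NT. GSK484 against CON gave a log2 fold of 1.61 with a counting interval of 0.16 to 3.54, which became -0.11 to 3.27 with the trend over GC content and length removed, and GSK484 against NT one of 0.34 (interval -0.92 to 1.69). At this depth only very large differences in HAS2 would be detectable. HAS1, the third synthase, had 9 counts in GSK484, with 8 in CON and 4 in NT.

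UGDH (ENSG00000109814), which makes the UDP-glucuronic acid that the synthases use, had 1369 expected counts in GSK484, with 1561 in CON and 1416 in NT, or 17.6 CPM in GSK484, 17.1 CPM in CON and 19.9 CPM in NT. NT was the highest. GSK484 against CON was within counting error (log2 fold 0.04, interval -0.07 to 0.14) but 0.25 on the TPM scale, where the median of all genes was 0.10. GSK484 against NT was -0.18 (interval -0.29 to -0.07) and CON against NT was -0.22 (interval -0.32 to -0.11). With the trend over GC content and length removed the last 2 were -0.04 and 0.03, both within counting error. UGDH counts were not whole, and UGDH-AS1, on the opposite strand, had 5.17 counts in GSK484, with 13.35 in CON and 21.58 in NT.

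Of 8 other genes of hyaluronan precursor synthesis, 7 were measured. In GSK484, 1 was higher than CON by at least 25% and 0 lower (median 0.16), beside 8.99% and 4.48% of all genes. Against NT there were 0 and 0 (median -0.10), beside 5.04% and 7.47%. In CON 0 were higher and 2 lower than in NT (median -0.22), beside 6.88% and 14.6%. UAP1, which makes UDP-N-acetylglucosamine, was at 76.9 CPM in GSK484, 61.4 CPM in CON and 80.9 CPM in NT. CON was the low library. Its log2 fold was 0.33 in GSK484 against CON and -0.40 in CON against NT, and 0.33 and -0.35 with the trend removed. UGP2, which makes UDP-glucose, was at 145 CPM in GSK484, 130 CPM in CON and 168 CPM in NT (0.16 in GSK484 against CON and -0.37 in CON against NT, or 0.02 and -0.09 with the trend removed). PGM3, an earlier enzyme of the same branch as UAP1, had 0.20 in GSK484 against CON, and PGM1, a phosphoglucomutase, -0.15.

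Among the degrading enzymes, HYAL2 (ENSG00000068001), a surface-anchored hyaluronidase, was the most abundant HYAL gene, with 3.48 to 5.03 times the TPM of HYAL3 and 32.8 to 48.8 times that of HYAL1. It had 3008 expected counts in GSK484, with 4195 in CON and 3210 in NT, or 38.6 CPM in GSK484, 46 CPM in CON and 45.1 CPM in NT. GSK484 was the low library, and CON and NT were close. The log2 fold was -0.25 in GSK484 against CON (interval -0.32 to -0.18) and -0.22 in GSK484 against NT (interval -0.30 to -0.15), under 25% in both. With the trend over GC content and length removed the values were -0.24 and -0.34, the second past the 25% rule. CON against NT was within counting error (0.03, interval -0.04 to 0.10), but stood at -0.11 (interval -0.17 to -0.04) with the trend removed. HYAL2 counts were whole in GSK484 and CON and not in NT, where some reads were divided with TUSC2 on the same strand, itself at 42.4 CPM in GSK484, with 42.8 in CON and 41.2 in NT.

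HYAL1 (ENSG00000114378), the lysosomal and plasma hyaluronidase, had 81 counts in GSK484, with 131 in CON and 73 in NT, or 1.04 CPM in GSK484, 1.44 CPM in CON and 1.02 CPM in NT. CON was the high library, and GSK484 and NT were alike within counting error (0.02, interval -0.45 to 0.50). GSK484 was 1.38-fold lower than CON (log2 fold -0.46, interval -0.88 to -0.06), and CON 1.40-fold higher than NT (0.48, interval 0.06 to 0.92). These intervals come close to 0, and the second included it with the trend removed (0.38, interval -0.04 to 0.82). HYAL3 (ENSG00000186792) had 614 expected counts in GSK484, with 718 in CON and 512 in NT, and was within counting error in GSK484 against CON (0.00, interval -0.16 to 0.16) and against NT (0.13, interval -0.04 to 0.30). Its TPM fold was higher, 0.28 in both, and its weighted length was 1527 bases in GSK484, with 1695 in CON and 1688 in NT. HYAL3 overlaps NAA80 and IFRD2 on the same strand, its counts were not whole, and its values are uncertain for that reason. The 3 HYAL genes lie together on chromosome 3, with NAA80 between HYAL3 and HYAL1 and with HYAL2 next to HYAL1. These neighbours did not share an order of libraries.

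CEMIP (ENSG00000103888), a secreted hyaluronan-binding protein needed for hyaluronan breakdown in fibroblasts, had 350 counts in GSK484, with 380 in CON and 411 in NT, or 4.49 CPM in GSK484, 4.16 CPM in CON and 5.77 CPM in NT. NT was the highest and the other libraries were alike within counting error (0.11 in GSK484 against CON, interval -0.10 to 0.32). GSK484 was 1.28-fold lower than NT (log2 fold -0.36, interval -0.57 to -0.15) and CON 1.38-fold lower (-0.47, interval -0.68 to -0.27). On the TPM scale the values against NT were closer to 0, -0.19 for GSK484 and -0.27 for CON, both under the 25% rule. With the trend removed they were -0.32 for GSK484, just under that rule, and -0.39 for CON. The weighted transcript length of CEMIP was 6259 bases in GSK484, with 5765 in CON and 7016 in NT, so NT had both the most reads and the longest mix. CEMIP2 (ENSG00000135048), its membrane-bound relative, had 5871 counts in GSK484, with 7252 in CON and 6211 in NT, or 75.3 CPM in GSK484, 79.5 CPM in CON and 87.2 CPM in NT. GSK484 was the lowest and NT the highest. GSK484 was at -0.08 against CON (interval -0.13 to -0.03) and -0.21 against NT (interval -0.26 to -0.16), both under 25%, and on the TPM scale at 0.05 and -0.06. The weighted length of CEMIP2 was 3058 bases in GSK484, 3085 bases in CON and 3395 bases in NT, again the longest in NT.

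Of 4 further genes of hyaluronan breakdown reported here, the lysosomal exoglycosidase genes HEXA and GUSB were measured, and 0 were past the 25% rule in any comparison, with medians of -0.12 in GSK484 against CON, -0.03 against NT and 0.09 for CON against NT. For all genes, the shares higher and lower were 8.99% and 4.48%, 5.04% and 7.47%, and 6.88% and 14.6% in these comparisons. HEXA had a log2 fold of -0.20 in GSK484 against CON and GUSB of -0.05. SPAM1, the sperm hyaluronidase gene, had a count of 0 in every library, and HYAL4 had 25 counts in GSK484, with 44 in CON and 31 in NT.

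**Figure D4:**
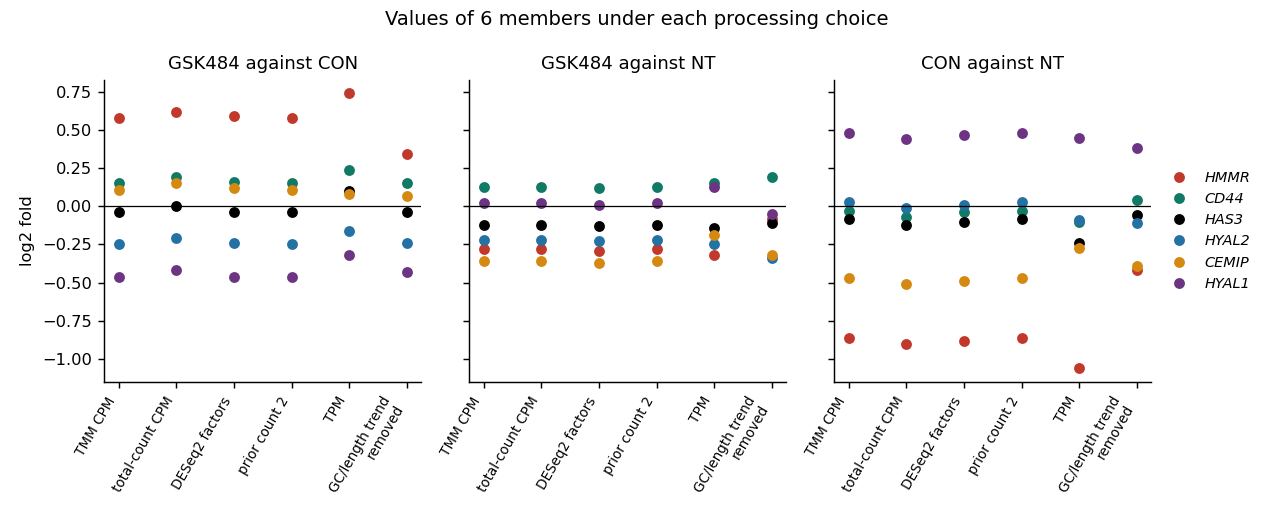
Log2 fold (y axis) of 6 members under 6 ways of processing (x axis), for GSK484 against CON and against NT, and CON against NT. HMMR keeps its sign in each panel but ranges from 0.34 to 0.74 in the first and from -1.06 to -0.42 in the third, while HAS3 changes sign in the first panel on the TPM scale.

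Other receptors were nearly silent. Of 6, 1 was measured, TLR4, an innate immune receptor that also responds to hyaluronan fragments, at 19.2 CPM in GSK484, 16.8 CPM in CON and 23.5 CPM in NT. It was not past the 25% rule in GSK484 against CON (0.19) or against NT (-0.29), and was lower in CON than in NT (-0.48, or -0.08 with the trend removed). STAB2, the clearance receptor of liver endothelium, had 11 counts in GSK484, with 6 in CON and 3 in NT, and LYVE1 and TLR2 had 0 throughout. Of 15 hyaluronan-binding matrix genes, 3 were measured. In GSK484, 1 was higher than CON and 0 lower (median 0.22), beside 8.99% and 4.48% of all genes. Against NT, 1 was higher and 0 lower in GSK484 (median 0.12), beside 5.04% and 7.47%. In CON 1 was higher and 1 lower than in NT (median 0.22), beside 6.88% and 14.6%. VCAN, the large proteoglycan versican, was at 7.94 CPM in GSK484, 6.1 CPM in CON and 9.46 CPM in NT, with CON the low library (0.38 in GSK484 against CON and -0.63 in CON against NT, or 0.25 and -0.35 with the trend removed). BCAN, brevican, whose reads were divided with other genes, was at 5.16 CPM in GSK484, 4.45 CPM in CON and 3.28 CPM in NT, with NT the low library (0.65 in GSK484 against NT and 0.44 in CON against NT, or 0.48 and 0.18 with the trend removed).

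The linkers between the CD44 tail and the cytoskeleton were all expressed. In GSK484, 2 of 6 were higher than CON and 0 lower (median 0.15), beside 8.99% and 4.48% of all genes. Against NT, 0 were higher and 1 lower in GSK484 (median -0.13), beside 5.04% and 7.47%. In CON 0 were higher and 3 lower than in NT (median -0.33), beside 6.88% and 14.6%. RDX, radixin, was at 40.1 CPM in GSK484, 26.2 CPM in CON and 48 CPM in NT. CON was the low library, as for HMMR, and RDX has a similarly low GC content of 38.6%. Its log2 fold was 0.61 in GSK484 against CON and -0.87 in CON against NT, or 0.41 and -0.48 with the trend removed. IQGAP1, a scaffold protein, had 0.32 and -0.54 in the same comparisons, or 0.27 and -0.39. The more abundant linkers of the same family, EZR (ezrin, 0.12 in GSK484 against CON) and MSN (moesin, 0.08), and NF2 (merlin, 0.18) were not past the 25% rule. ANK3, an ankyrin chosen after its values were seen, was lower than NT in GSK484 (-0.56, or -0.43 with the trend removed) and in CON (-0.68, or -0.44).

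Of 9 proteases that shed or cleave CD44, 8 were measured. In GSK484, 1 was higher than CON and 0 lower (median 0.03), beside 8.99% and 4.48% of all genes. Against NT, 0 were higher and 0 lower in GSK484 (median -0.04), beside 5.04% and 7.47%. In CON 0 were higher and 2 lower than in NT (median 0.04), beside 6.88% and 14.6%. ADAM10, a CD44 sheddase, was at 85.8 CPM in GSK484, 61.4 CPM in CON and 106 CPM in NT. CON was again the low library (0.48 in GSK484 against CON and -0.79 in CON against NT, or 0.25 and -0.34 with the trend removed). ADAM17, another sheddase, had 0.23 in GSK484 against CON and -0.39 in CON against NT, or 0.01 and 0.04 with the trend removed. NCSTN, a subunit of gamma-secretase, had -0.30 in GSK484 against CON. The other gamma-secretase subunits APH1A and PSENEN were the most abundant of the list, with -0.14 and -0.17 in the same comparison.

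All 8 other ligands and co-receptors of CD44 were measured. In GSK484, 1 was above CON by the 25% rule and 0 below it (median 0.05), beside 8.99% and 4.48% of all genes. Against NT, 0 were above and 1 below in GSK484 (median 0.01), beside 5.04% and 7.47%. In CON 0 were higher and 2 lower than in NT (median -0.09), beside 6.88% and 14.6%. SLC7A11, the cystine transporter that a CD44 variant stabilizes at the cell surface, was at 32.5 CPM in GSK484, 21.1 CPM in CON and 41 CPM in NT. The log2 fold was 0.62 in GSK484 against CON, -0.34 in GSK484 against NT and -0.96 in CON against NT. With the trend removed these were 0.24, -0.05 and -0.29, all under the 25% rule, and its GC content was 35.4%. The value with the trend removed depended on the form of the trend, from 0.04 to 0.32 in GSK484 against CON and from -0.41 to 0.02 in CON against NT over the 32 forms. Its partner chain SLC3A2 had -0.05 in GSK484 against CON and CD74, a co-receptor, -0.05. LRP6, a WNT co-receptor, had 0.13 in GSK484 against CON and -0.35 in CON against NT, or -0.09 and 0.09 with the trend removed, and ERBB2 had -0.13 in GSK484 against CON.

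**Figure D5:**
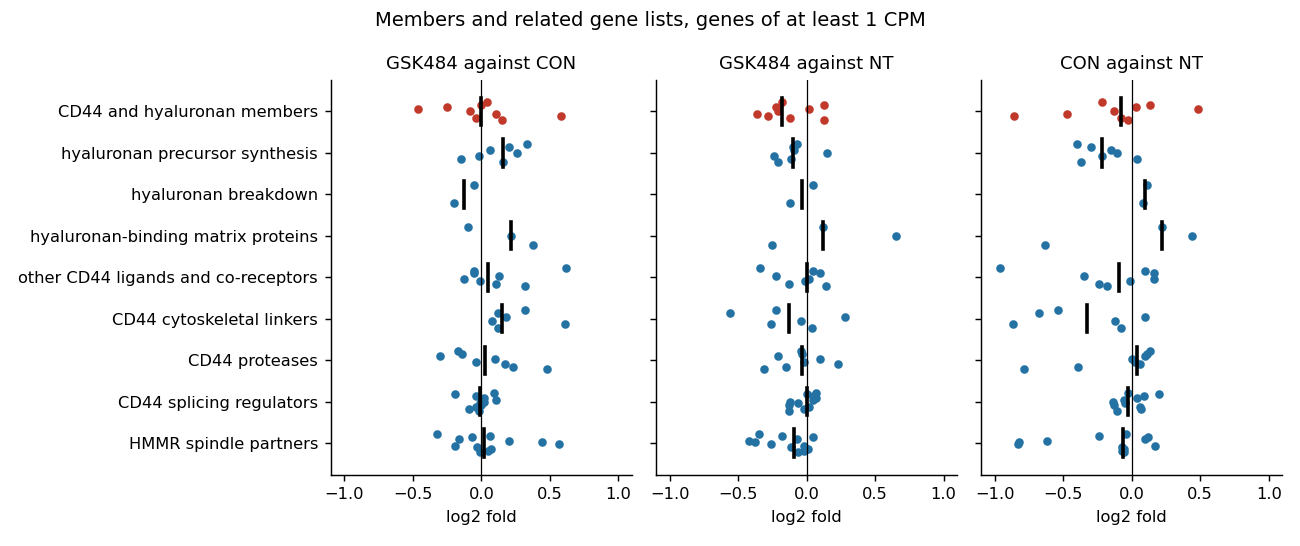
Log2 fold of each gene of at least 1 CPM (points) in the members (red, top row) and 8 related lists (blue), with the list median as a black bar, for GSK484 against CON and against NT, and CON against NT. The splicing regulators lie between -0.19 and 0.11 in the first panel, and several lists have a single point far to the left in the third, such as SLC7A11 at -0.96.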

How the data were processed

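RNA of 3 libraries was sequenced with a stranded total RNA kit as paired-end reads, per the labels' protocols. The deposited expected counts are unnormalized estimates of reads per gene, and the deposited TPM values are scaled per effective length and to the same total, per the file headers. Lengths weighted over transcripts come from the same deposited tables, and the deposited FPKM values were not used. RSEM and hg19 were used, per the submitters' processing notes. Their versions, the aligner, the annotation release and the strand setting are not stated there, so overlapping and antisense genes are uncertain.

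Expected counts were rounded for intervals and scaled with TMM factors (edgeR 4.0.16, R 4.3.3) of 1.01 for GSK484, 0.98 for CON and 1.01 for NT. Log2 folds used a prior count of 0.5, and 95% intervals were exact conditional binomial (Clopper-Pearson) intervals. Reads without molecular identifiers are not independent molecules. Counts called whole were so within 0.005 in all libraries. TPM folds used a pseudocount of 0.05. The GC and length trend was fitted as additive natural splines (4 degrees of freedom each) over 8874 coding genes that reached 10 CPM, with GC content from GENCODE 29. This form was settled after 32 forms (4 gene sets, 3 to 6 degrees of freedom, with or without an interaction) had been compared on these data with the values in view. Median-of-ratios factors came from DESeq2 1.42.0. The outcome of a run of the procedure on simulated counts is not reported here and is not used as support.

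Members and lists were chosen with earlier results of these data known. All 10 members and 103 of 104 other list entries matched a gene ID, and some entries of the leukocyte and hyaluronan breakdown lists are not reported here, so the counts, medians and sums of these lists cover the other entries. By rule, the text names all members and the 3 genes nearest to CD44 and to HMMR. Of each list, it also names the 3 largest folds beyond counting error in GSK484 against CON and the 2 highest TPM in NT. The cell type marker lists did not follow that rule. Other genes named were chosen after their values were seen, as were the comparison with genes of similar GC content and the motifs. Promoter sequences are RefSeq's, build GRCh38.p14, and 9 members had one. No coordinates of the hg19 tables were used.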

Additional observations from a re-analysis of the deposited data

How the results depend on the processing

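With 1 library per group, leaving out a replicate could not be done. No paired analysis was possible because each group has 1 library and no test was made. The 3 counts of members past the 25% rule and the 3 past 2-fold were recomputed under 6 alternatives and under a trend with an interaction of GC content and length, which was added after seeing the data. Deposited TPM gave 1 member past 25% in GSK484 against CON (HMMR) in place of 2, 0 in GSK484 against NT in place of 1, and 1 past 2-fold in CON against NT (HMMR) in place of 0. Without a CPM minimum, 1 member, HAS2, was past 2-fold in GSK484 against CON in place of 0. With the interaction, 1 member (HYAL1) was past 25% in GSK484 against CON in place of 2, without HMMR at 0.31, and 2 (CEMIP and HYAL2) in GSK484 against NT in place of 1. The other counts stayed within 1.5 times, but with the additive GC and length trend removed the 1 member lower in GSK484 than in NT was HYAL2 in place of CEMIP, and HYAL1 was not counted in CON against NT. Of 180 single log2 folds under an alternative, 134 stayed inside the main counting interval, 40 left it with no change of sign of a value beyond counting error, and 6 changed sign. Those were HAS3 (0.10) and CEMIP2 (0.05) in GSK484 against CON on the TPM scale, and CD44 (0.04) and UGDH (0.03) in CON against NT with the trend removed (0.05 for each with the interaction). The cause of these changes was not tested. Depth limits HAS2 and HYAL1.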
